A study of Mus musculus with 2 samples.

Results

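The 10 genes described here belong to the fibroblast growth factor (FGF) pathway. They are the ligands Fgf4, Fgf5, Fgf8, Fgf15 and Fgf17, the receptors Fgfr1 and Fgfr2, and the feedback genes Spry2, Spry4 and Dusp6. They were taken by symbol from 32285 genes counted in single cells of mouse gastruloids, and all 10 had counts in both libraries. Gastruloids are aggregates of embryonic stem cells that begin to form a body axis in culture. The study has 2 libraries, 1 from wild type R1 mouse embryonic stem cells and 1 from R1 cells with both Sp5 and Sp8 knocked out. Aggregates of about 300 cells grew in N2B27 medium without serum, both groups were given 3 µM CHIR on day 2, and pooled aggregates were dissociated 12 hours later, at day 2.5. CHIR blocks the kinase GSK3 and so turns on the Wnt pathway. Each library is therefore a pool of aggregates of 1 genotype, and no group without CHIR was analysed here. Whether the cells lacking Sp5 and Sp8 are 1 clone is not given in the sources used here. With 1 library per genotype no replicate error exists, so no difference below could be set against the spread between cultures, and no p-value is given.

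FGF ligands are secreted proteins that bind receptor tyrosine kinases together with heparan sulphate chains on the cell surface. Bound receptors signal through adaptors and RAS to the kinase ERK, which switches on ETS transcription factors such as Etv4 and Etv5. Sprouty proteins and the ERK phosphatase Dusp6 are induced by this signal and dampen it. In the mouse embryo Fgf4 is made by the inner cell mass and later by the primitive streak, Fgf5 marks the epiblast, and Fgf8 is made in the streak, where Fgfr1 is needed for mesoderm cells to leave it. Sp5 and Sp8 are zinc finger factors of the Sp family, whose members bind GC boxes, and they act downstream of Wnt signalling.

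Promoter sequences were at hand for 5 of the 10 genes, from RefSeq on GRCm38.p6. The 250 bases before the start were searched on both strands for 4 motifs: a GC box (GGGCGG), a T-box site (AGGTGTGA), an ETS core (CCGGAA) and a TCF/LEF motif (CTTTGAT). Of the 32851 promoters in the table, 32.7% held the GC box, 1.12% the T-box site, 12.0% the ETS core and 3.21% the TCF/LEF motif. The sequences of Fgf5, Spry2 and Fgf4 are shown because Fgf5 and Spry2 were higher in the library labelled double knockout in each class of cells described below, while Fgf4 was lower over all cells. Fgf4 was lower in only 6 of the 8 classes. Dusp6, whose sequence is not shown, was lower in 8 of 8. They run 5′ to 3′ on the gene's strand and end at the base before the RefSeq start, with motif matches in capitals. The gene spans given below come from another annotation, GENCODE, and the windows of Fgf4 and Fgfr2 lie inside those spans.
Fgf5, chr5:98253934-98254183, plus strand: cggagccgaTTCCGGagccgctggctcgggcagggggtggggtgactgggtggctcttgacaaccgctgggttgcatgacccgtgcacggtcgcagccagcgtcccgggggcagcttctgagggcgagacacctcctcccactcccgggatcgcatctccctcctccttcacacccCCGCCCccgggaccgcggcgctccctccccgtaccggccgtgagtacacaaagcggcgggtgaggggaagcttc
Spry2, chr14:105896820-105897069, minus strand: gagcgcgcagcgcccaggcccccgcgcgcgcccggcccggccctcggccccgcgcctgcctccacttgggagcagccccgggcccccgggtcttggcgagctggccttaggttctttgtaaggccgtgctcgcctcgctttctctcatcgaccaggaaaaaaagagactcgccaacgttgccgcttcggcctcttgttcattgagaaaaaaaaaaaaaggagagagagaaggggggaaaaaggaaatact
Fgf4, chr7:144861136-144861385, plus strand: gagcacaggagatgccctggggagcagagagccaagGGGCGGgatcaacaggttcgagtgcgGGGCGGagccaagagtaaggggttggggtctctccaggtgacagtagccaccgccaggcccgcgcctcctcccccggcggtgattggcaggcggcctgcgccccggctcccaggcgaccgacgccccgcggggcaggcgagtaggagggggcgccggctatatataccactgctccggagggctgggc
Fgf5 held 1 GC box, with its first base at -74, and 1 ETS core at -241. Fgf4 held 2 GC boxes, at -214 and -188. These windows of Spry2, Fgfr2 and Dusp6 held none of the 4 motifs. A match is a description of these letters only.

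Cells were barcodes with at least 2500 UMIs, at least 1000 genes and at most 10% mitochondrial UMIs. A UMI is a molecular tag by which the copies of 1 captured RNA molecule are counted once. This gave 8707 cells for wild type and 10587 for the double knockout, with 97157331 and 97644169 UMIs and medians of 10571 and 8637 UMIs per cell. The kept barcodes had 27 sequences in common, against 13.6 if the barcodes were drawn at random. The targeted genes were not lower in the library labelled double knockout: Sp5 was higher there, at 479 against 109 CPM (UMIs of a gene per 1000000 UMIs), and so was Sp8, at 40.1 against 20.8 CPM. The deleted parts are not given in the sources used here, and a 3′ tag outside them checks nothing. The libraries are therefore called by their labels throughout, and each direction below rests on those labels. The cell type label, embryonic stem cell, was set against markers: of 12 naive markers, Dppa5a, Nanog and Tdh were at 133, 116 and 102 CPM in the library labelled wild type, whereas Esrrb and Tcl1 were at 0.597 and 0.113 CPM. Dnmt3b, a gene of the primed epiblast, was at 724 CPM. The summed primitive streak list was at 332 CPM in the library labelled wild type against 531 CPM, and the neural list was at 201 against 115 CPM. The streak sum includes Fgf8, at 92.6 against 153 CPM, and Eomes, at 91.2 against 186 CPM, which make up much of its difference. T is also in the streak sum, and Irx3 is in the neural sum. By a log2 ratio of at least 0.25, the second library had 7 of 10 streak markers higher and 1 lower, and 8 of 9 neural markers lower.

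Fgf5 and Fgf8 were higher in the library labelled double knockout, as were Spry2 and Spry4, whereas Fgf4, Fgf17 and Fgfr2 were lower and Fgf15, Fgfr1 and Dusp6 lay within the limit. In what follows a pair of values gives the library labelled wild type first, a log2 ratio above 0 means higher in the other library, and brackets hold exact 95% Poisson intervals, which cover counting error only. The limit was a log2 ratio of 0.25 in size, and 4 members were higher and 3 lower past it. Over all 7607 genes with a mean of at least 10 CPM, 3.13% were higher and 4.67% lower past the same limit. Only 6 of the 10 members reach that level, namely Fgf5, Fgf8, Fgf15, Fgfr1, Spry2 and Dusp6, and of these 3 were higher and none lower. Among the 5995 genes between 0.5 and 10 CPM, where Fgf4, Fgf17, Fgfr2 and Spry4 lie, 11.2% were higher and 17.9% lower, so a call there is a common event. The median log2 ratio of all 7607 genes was -0.02, with an SD of 0.16.

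**Figure D1:**
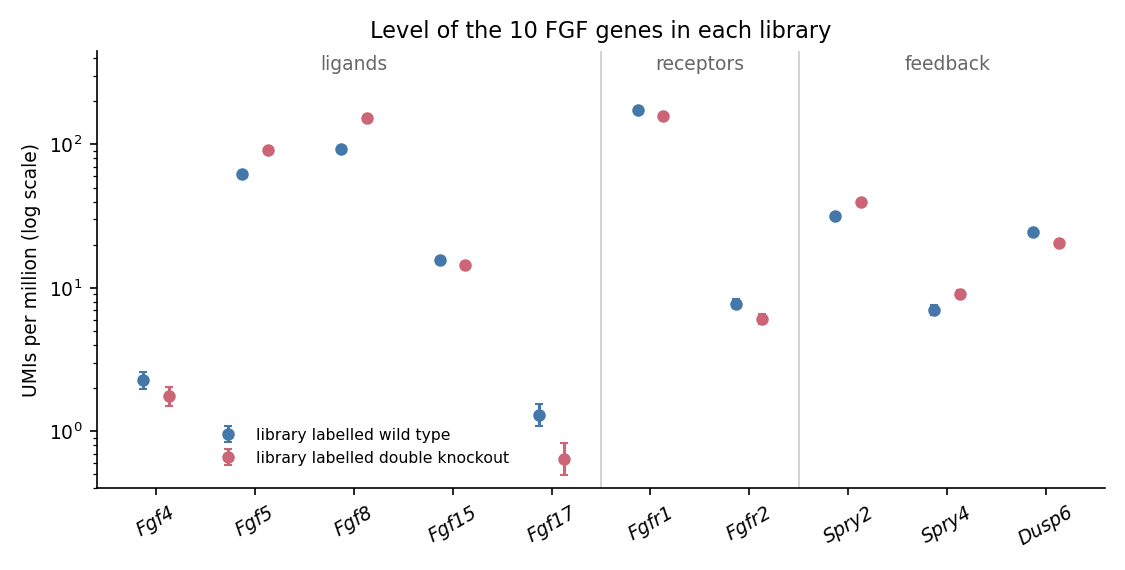
Level of each FGF gene in the 2 libraries, in CPM on a log scale. Points are the library values and bars are exact 95% Poisson intervals, many of them smaller than the points; Fgf8 was at 92.6 and 153 CPM, and Fgf17 at 1.31 and 0.645 CPM.

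Among the ligands, Fgf8 had the largest difference in CPM and Fgf17, described after it, the largest log2 ratio in size. Fgf8 (ENSMUSG00000025219; chromosome 19, 45736798 to 45742915, minus strand) had 9001 UMIs, or 92.6 CPM (90.7 to 94.6), in the library labelled wild type. In the other it had 14972 UMIs, or 153 CPM (151 to 156), a log2 ratio of 0.73 (0.69 to 0.76). Only 10 of the 7607 genes had a higher ratio. Fgf5 (ENSMUSG00000029337; chromosome 5, 98254184 to 98277030, plus strand) had 62.1 CPM (60.6 to 63.7) in the first library and 91.3 CPM (89.4 to 93.2) in the second, a log2 ratio of 0.56 (0.51 to 0.60), with 26 genes above it. For both, the 2 intervals were far apart.

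The other 3 ligands were lower or close to equal. Fgf15 (ENSMUSG00000031073; chromosome 7, 144896531 to 144900953, plus strand), the mouse counterpart of human FGF19, was at 15.6 CPM (14.8 to 16.4) and 14.5 CPM (13.7 to 15.2), a log2 ratio of -0.11 (-0.22 to -0.004). Fgf4 (ENSMUSG00000050917; chromosome 7, 144847367 to 144865243, plus strand), the neighbour of Fgf15 on that chromosome, had 220 and 172 UMIs, or 2.26 and 1.76 CPM, a log2 ratio of -0.36 (-0.66 to -0.07). Fgf17 (ENSMUSG00000022101; chromosome 14, 70636203 to 70642268, minus strand), a close relative of Fgf8, had 127 and 63 UMIs, or 1.31 and 0.645 CPM, a log2 ratio of -1.01 (-1.48 to -0.57). Fgf8 and Fgf17 thus lay on opposite sides of the background. Fgf15 overlaps the antisense genes Gm26793 and Gm39119. The strand handling of the counts is not given in the sources used here, so the level of Fgf15 is less certain. The same holds for Spry4, which overlaps the antisense genes Gm27369 and Gm27804. It also holds for Eomes (antisense Gm33460) and Irx3 (antisense Irx3os), by which cells are classed below.

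The make-up of the captured ligand RNA differed too. The 5 ligands together had 16901 and 25533 UMIs, or 174 and 261 CPM. Counts are 1 per captured 3′ end and were not divided by transcript length. Fgf8 made up 53.3% and 58.6% of the ligand UMIs, Fgf5 35.7% and 34.9%, Fgf15 8.98% and 5.53%, Fgf4 1.30% and 0.674%, and Fgf17 0.751% and 0.247%. Fgf8 and Fgf5 were the main ligands in both libraries, and the share of the other 3 was lower in the library labelled double knockout.

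Of the receptors, Fgfr1 differed by less than the limit and Fgfr2 was lower. Fgfr1 (ENSMUSG00000031565; chromosome 8, 25513654 to 25575718, plus strand) was at 174 CPM (171 to 177) and 159 CPM (156 to 161), a log2 ratio of -0.13 (-0.16 to -0.10). Fgfr2 (ENSMUSG00000030849; chromosome 7, 130162451 to 133123350, minus strand), whose splice forms pair with different ligands, was at 7.77 CPM (7.23 to 8.35) and 6.05 CPM (5.57 to 6.56), a log2 ratio of -0.36 (-0.52 to -0.20). When the 8 classes of cells described below were given equal shares in both libraries, the Fgfr2 ratio was -0.03 and no longer passed the limit. GENCODE M21 draws Fgfr2 over a span that overlaps 69 other genes, 36 of them on its strand, and Fgfr1 overlaps the antisense gene Gm16159.

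The feedback genes differed in opposite directions. Spry2 (ENSMUSG00000022114; chromosome 14, 105891947 to 105896819, minus strand) was at 31.5 CPM (30.4 to 32.6) and 39.8 CPM (38.5 to 41.0), a log2 ratio of 0.34 (0.27 to 0.41). Spry4 (ENSMUSG00000024427; chromosome 18, 38586247 to 38601415, minus strand) was at 7.0 and 9.10 CPM, a log2 ratio of 0.38 (0.23 to 0.53). Dusp6 (ENSMUSG00000019960; chromosome 10, 99263231 to 99267489, plus strand) was lower, with 24.5 CPM (23.6 to 25.5) in the first library and 20.6 CPM (19.8 to 21.6) in the second. A log2 ratio of -0.248 (-0.33 to -0.16) lay just inside the limit, and Dusp6 passed the limit in 4 of 8 other settings, with ratios from -0.34 to -0.17.

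Free RNA held Fgf8 and Fgf5 at levels that differed in the same direction. Barcodes with 10 to 100 UMIs, which hold RNA from the medium rather than a cell, had Fgf8 at 79.1 and 144 CPM, or 85.4% and 94.2% of the level in cells. Fgf5 was there at 41.4 and 75.5 CPM and Fgfr1 at 111 and 103 CPM. Fgfr2 was at 5.81 and 6.69 CPM there, from 23 and 17 UMIs, the opposite direction to that in cells. Cells with Irx3 UMIs and none of T or Eomes, described below, held Fgf8 at only 15.2 and 21.8 CPM. The part of free RNA in the difference between libraries was not tested.

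**Figure D2:**
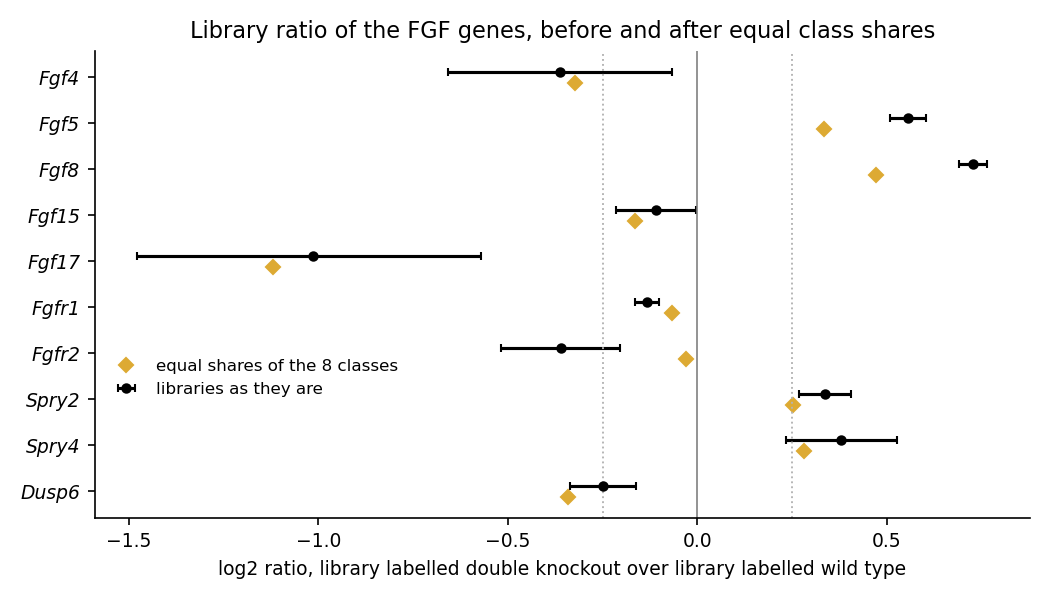
Log2 ratio of each FGF gene, the library labelled double knockout over the one labelled wild type. Black points are the libraries as they are, with exact conditional 95% intervals, diamonds give each of 8 classes of cells the same share of UMIs in both libraries, and dotted lines mark 0.25; with equal shares Fgf8 was at 0.47, Fgf5 at 0.34 and Fgfr2 at -0.03.

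Cells were next split by 3 transcription factor genes. T (Brachyury) and Eomes mark the primitive streak and the mesoderm and endoderm that leave it, and Irx3 is found in the neural plate, among other tissues. A cell was called positive with at least 1 UMI of the gene. T was seen in 2267 of 8707 cells (26.0%) and in 3100 of 10587 cells (29.3%). Eomes was seen in 43.4% and 61.8% of cells, and Irx3 in 15.5% and 6.21%. Positive cells were somewhat deeper, with medians of 11773 against 10129 UMIs for T and 11190 against 10480 for Irx3 in the library labelled wild type. With each cell thinned to 2500 UMIs, the shares were 7.97% and 10.7% for T, 17.8% and 32.0% for Eomes, and 4.61% and 1.99% for Irx3. In free RNA Irx3 was at 137% and 130% of its level in cells, T at 65.1% and 52.7%, and Eomes at 54.3% and 54.5%. Of the Irx3-positive cells, 988 of 1346 and 556 of 657 held exactly 1 Irx3 UMI. The part of free RNA in the classes was not tested. The classes are marker classes rather than cell types, but the rest of the streak and neural lists moved with them. Without the class genes and the FGF genes, all 7 other streak markers were higher in T-positive cells of both libraries, summing to 154 against 90.2 CPM in the library labelled wild type. The 8 other neural markers were all higher in its Irx3-positive cells, at 262 against 165 CPM, and 7 of 8 were higher in the Irx3-positive cells of the other library.

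Fgf8 and Fgf5 were higher in cells with T or Eomes and lower in cells with Irx3, and Fgfr2 ran the opposite way, in both libraries. Of the 30 pairs of a member and a marker, 10 passed a log2 ratio of 0.5 in the same direction in both libraries. For T these were Fgf8 and Fgf17 higher and Fgfr2 lower, beside 0.197% of the 7607 genes higher and 0.184% lower. The Fgf17 call was lost in 3 of 5 other settings, with ratios of 0.35 to 0.49 in the library labelled double knockout. For Eomes they were Fgf5 and Fgf8 higher and Fgfr2 lower, beside 0.355% and 0.421% of genes. For Irx3 they were Fgfr2 higher and Fgf5, Fgf8 and Fgf17 lower, beside 0.302% and 0.447%. Fgfr2 and Fgf17 are below 10 CPM, and among genes between 0.5 and 10 CPM the shares were 0.534% and 2.44% for T, 0.834% and 3.34% for Eomes, and 3% and 2.39% for Irx3.

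**Figure D3:**
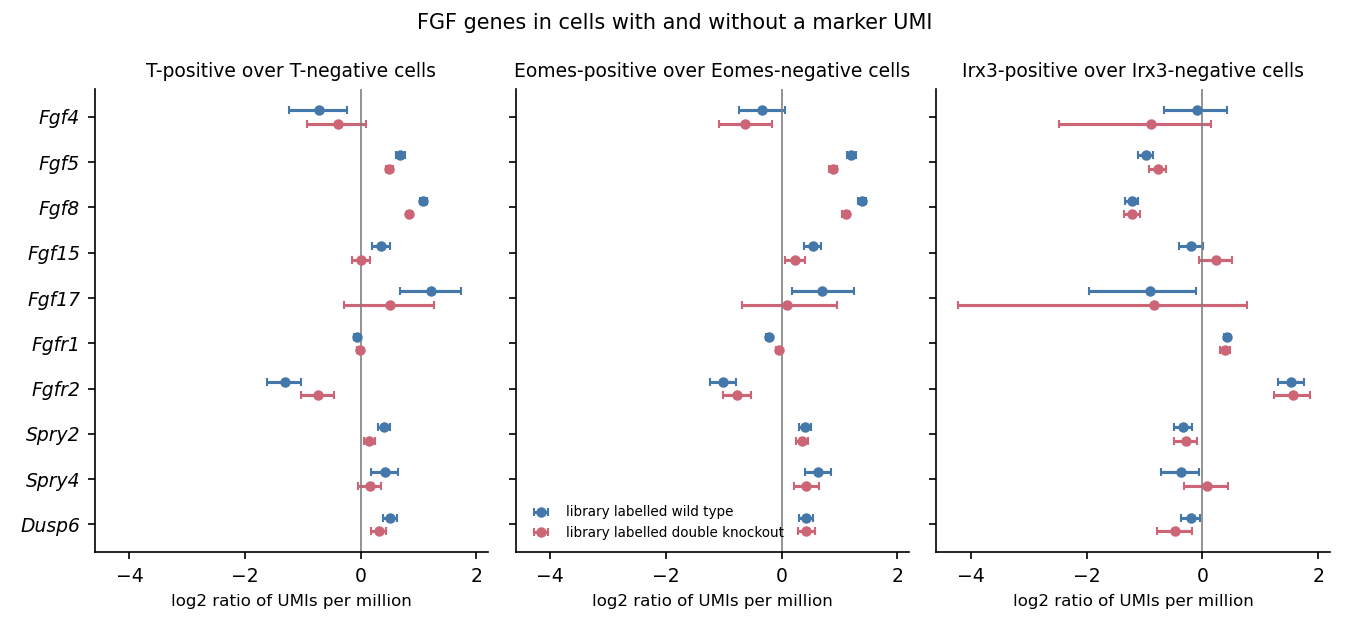
Log2 ratio of CPM between cells with and without a UMI of T, Eomes or Irx3, per library, with exact conditional 95% intervals. Fgf8 lies right of 0 for T (1.08 and 0.84) and Eomes (1.39 and 1.11) and left of it for Irx3 (-1.22 in both), and Fgfr2 lies on the opposite side each time.

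Of the 6 members of at least 10 CPM, Fgf8 had the widest contrast with each marker in both libraries. In the library labelled wild type it was at 147 CPM (143 to 152) in T-positive and 69.5 CPM (67.5 to 71.5) in T-negative cells, and in the other library at 217 and 121 CPM. These are log2 ratios of 1.08 (1.02 to 1.14) and 0.84 (0.79 to 0.89). With Eomes the ratios were 1.39 (1.32 to 1.45) and 1.11 (1.05 to 1.17). In Irx3-positive cells Fgf8 was at 43.9 and 68.4 CPM, against 103 and 159 CPM in Irx3-negative cells, a log2 ratio of -1.22 in both libraries. Within each of the 2 libraries the order was thus the same, while each class was at a higher level in the library labelled double knockout.

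The step was also seen with the number of T UMIs. In thinned cells with 0, 1 and 2 T UMIs of the library labelled wild type, Fgf8 was at 80.7 (76.8 to 84.8), 150 (131 to 171) and 242 CPM (173 to 330). In the other library it was at 138 (134 to 143), 225 (207 to 244) and 242 CPM (190 to 303), so the last 2 steps there had overlapping intervals. Cells with 3 or more T UMIs numbered 12 and 18, too few to place.

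Fgf5 followed Fgf8 with smaller ratios. It was at 84.6 against 52.6 CPM in T-positive and T-negative cells of the library labelled wild type and at 113 against 80.4 CPM in the other, log2 ratios of 0.69 and 0.49. With Eomes the log2 ratios were 1.20 (1.12 to 1.28) and 0.89 (0.82 to 0.96). With Irx3 they were -0.98 (-1.11 to -0.86) and -0.77 (-0.93 to -0.62). The T ratio of the library labelled double knockout lay just below the limit of 0.5, so Fgf5 was not among the calls for T.

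Fgfr2 was the member most tied to Irx3. It was at 17.0 CPM (15.1 to 19.1) in Irx3-positive cells and 5.89 CPM (5.37 to 6.44) in Irx3-negative cells of the library labelled wild type. In the other it was at 15.7 CPM (12.9 to 19.1) and 5.35 CPM (4.88 to 5.85). The folds were 2.89 and 2.95. In T-positive cells it was lower, at log2 ratios of -1.31 (-1.62 to -1.02) and -0.75 (-1.04 to -0.47), and in Eomes-positive cells at -1.01 and -0.77. Between the libraries it differed little inside the Irx3 classes, at -0.11 (-0.45 to 0.22) in positive and -0.14 (-0.32 to 0.05) in negative cells. Both intervals hold 0, and the share of Irx3-positive cells itself was 15.5% and 6.21%. Inside the other classes Fgfr2 was lower in T-negative cells, at -0.44 (-0.61 to -0.26), and in Eomes-negative cells, at -0.30 (-0.52 to -0.09). In T-positive cells it was at 0.13 (-0.24 to 0.51) and in Eomes-positive cells at -0.06 (-0.30 to 0.19).

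Fgfr1 was spread more evenly. It was at 221 against 164 CPM in Irx3-positive and Irx3-negative cells of the library labelled wild type and at 204 against 155 CPM in the other, log2 ratios of 0.43 and 0.39. With T the ratios were -0.06 and -0.02, and with Eomes -0.22 and -0.05. It thus leaned the same way as Fgfr2 on Irx3, at a lower ratio.

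The feedback genes leaned towards the T and Eomes classes, below the limit in at least 1 library. Dusp6 had log2 ratios of 0.51 and 0.31 with T, 0.42 and 0.43 with Eomes, and -0.20 and -0.47 with Irx3. Spry2 had 0.40 and 0.15 with T, 0.40 and 0.35 with Eomes, and -0.33 and -0.28 with Irx3. Spry4 had 0.42 and 0.16 with T, 0.62 and 0.43 with Eomes, and -0.38 and 0.08 with Irx3. Of these 9 pairs of genes and markers only Spry4 with Irx3 differed in sign between the libraries, and the interval of the library labelled double knockout (-0.32 to 0.44) held 0. Dusp6 and Spry2 had the direction of Fgf8 with all 3 markers in both libraries.

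The scarce ligands gave wide intervals. Fgf17 had 63 UMIs in T-positive cells of the library labelled wild type, or 2.17 CPM against 0.939 CPM, a log2 ratio of 1.21 (0.69 to 1.74). In the other library the ratio was 0.51 (-0.28 to 1.26), and in Irx3-positive cells it had only 12 and 2 UMIs. Its lower ratio there, -0.84 in the library labelled double knockout, was 1.17 when cells needed at least 2 Irx3 UMIs. Fgf4 was lower in T-positive cells, at -0.71 (-1.23 to -0.25) and -0.40 (-0.92 to 0.09). Fgf15 was higher in Eomes-positive cells, at 0.54 (0.39 to 0.69) and 0.23 (0.06 to 0.40), and with T its ratios were 0.35 (0.19 to 0.50) and 0.01 (-0.16 to 0.17).

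Inside the classes the libraries still differed. In T-positive cells Fgf8 had a log2 ratio between libraries of 0.56 (0.51 to 0.62) and in T-negative cells 0.81 (0.75 to 0.86). In Eomes-positive and Eomes-negative cells it was at 0.46 and 0.74, and in Irx3-positive and Irx3-negative cells at 0.64 in both. Fgf5 was at 0.42 and 0.61 for T and at 0.30 and 0.61 for Eomes, so for T and Eomes the ratio of both ligands was higher in the negative cells. For Irx3 that of Fgf5 was 0.68 in positive and 0.47 in negative cells. Dusp6 was below 0 in each of these 6 classes, from -0.52 in Irx3-positive to -0.19 in T-negative cells. Of the 6 members of at least 10 CPM, 2 were higher and 2 lower by 0.25 in T-positive cells, beside 4.15% and 6.32% of the 7607 genes, and 3 and 0 in T-negative cells, beside 3.17% and 4.93%. In Eomes-positive cells 3 were higher and 2 lower, beside 2.87% and 4.11%, and in Eomes-negative cells 3 and 1, beside 3.62% and 6.4%. In Irx3-positive cells 4 were higher and 1 lower, beside 6.73% and 7.8%, and in Irx3-negative cells 3 and 1, beside 3.12% and 4.43%. The ratio of Fgf15 in Irx3-positive cells, 0.27 (-0.07 to 0.60), is among those 4 with an interval that holds 0. Fgf15 was lower in T-positive cells, at -0.34 (-0.52 to -0.16), and in Eomes-positive cells, at -0.29 (-0.42 to -0.16). In T-negative, Eomes-negative and Irx3-negative cells it was at 0.001, 0.02 and -0.16.

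Crossing the 3 markers gave 8 classes, from 35 cells with T and Irx3 but no Eomes in the library labelled double knockout to 3869 cells with Eomes alone. Fgf8 was lowest in cells with Irx3 alone, at 15.2 CPM (12.8 to 18.0) and 21.8 CPM (16.6 to 28.1). It was highest in cells with T and Eomes but no Irx3, at 177 CPM (170 to 183) and 237 CPM (231 to 243). The highest class was 11.6-fold and 10.9-fold over the lowest. Of the 7 neighbouring steps in the order of Fgf8 levels, overlapping intervals were found at 3 in the first library and at 4 in the second.

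Fgf5 had the same lowest and highest class, at 17.1 and 23.3 CPM in cells with Irx3 alone and 5.85-fold and 5.22-fold over that in cells with T and Eomes. Fgfr2 was highest in cells with Irx3 alone in the library labelled wild type, at 22.4 CPM (19.4 to 25.7). In the other library it was at 17.0 CPM (12.4 to 22.6) there and at 17.7 CPM (12.8 to 23.9) in cells with Eomes and Irx3, which overlap. Its lowest level in the library labelled wild type was 3.09 CPM, in cells with T and Eomes, the class where Fgf8 was highest. Fgfr1 was also highest in cells with Irx3 alone, at 237 and 227 CPM, and its levels spanned 1.57-fold and 1.52-fold.

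The direction between libraries held across classes for 4 genes. Fgf5, Fgf8 and Spry2 were higher in the library labelled double knockout in 8 of 8 classes, and Dusp6 was lower in 8 of 8. Their intervals were apart in 5 classes for Fgf5, 4 for Fgf8, 2 for Spry2 and 3 for Dusp6. Spry4 was higher in 7 and Fgfr1 lower in 7 of the 8, and Fgfr2 was higher in 4 and lower in 4. With each class given the same share in both libraries, Fgf8 was at a log2 ratio of 0.47 and Fgf5 at 0.34, against 0.73 and 0.56 before. On that footing Spry2 was at 0.25, Spry4 at 0.28, Dusp6 at -0.34, Fgf17 at -1.12, Fgf4 at -0.32, Fgf15 at -0.16 and Fgfr1 at -0.07. The Fgf8 and Fgf5 ratios were thus smaller with the class shares set equal and still past the limit, while that of Fgfr2 was not. The classes rest on genes that themselves differ between the libraries, so a difference in class shares and one within cells cannot be told apart in full.

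**Figure D4:**
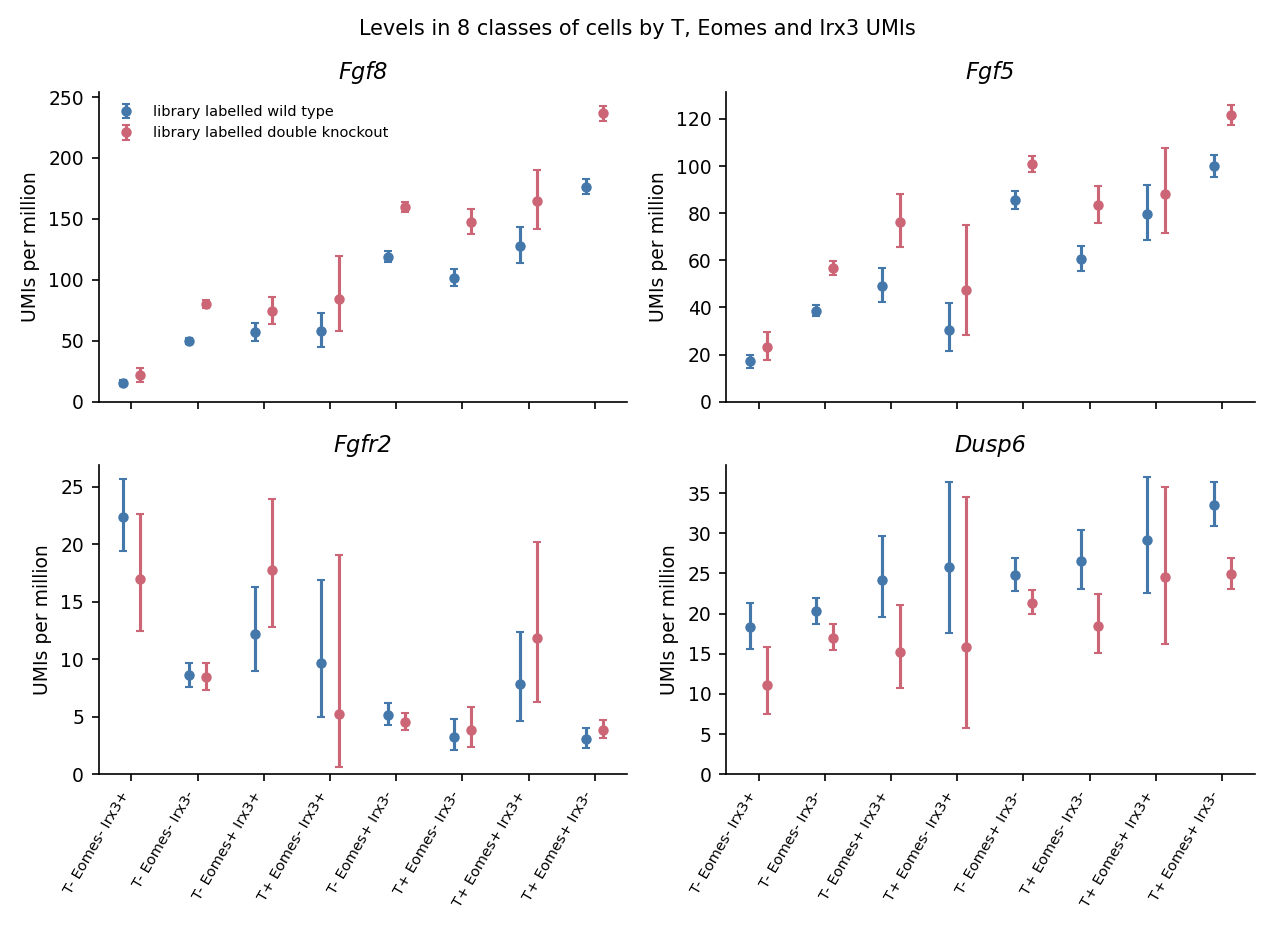
CPM of Fgf8, Fgf5, Fgfr2 and Dusp6 in the 8 classes of cells, placed from cells with Irx3 alone on the left to cells with T and Eomes on the right, with exact 95% Poisson intervals. Fgf8 runs from 15.2 CPM in cells with Irx3 alone to 177 CPM in cells with T and Eomes in the library labelled wild type, and Fgfr2 from 22.4 to 3.09 CPM between the same 2 classes.

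Shares of cells had the same directions at equal depth. After thinning each cell to 2500 UMIs, which no kept cell falls below, Fgf8 was seen in 16.1% of cells (15.4 to 16.9, exact binomial) and 25.8% (24.9 to 26.6). In cells with Irx3 alone the shares were 4.0% and 4.82%. The median cell of that class had 10428 and 8113 UMIs before thinning, and its share for Fgf8 is taken as an upper limit of the background. Fgf5 was seen in 12.9% and 19.5% of cells, against 3.03% and 4.5% in cells with Irx3 alone. Fgfr1 was seen in 33.5% and 30.5%, Spry2 in 7.02% and 8.77%, Dusp6 in 5.73% and 4.99%, and Fgf15 in 3.87% and 3.34%. In cells with Irx3 alone the shares were 41.9% and 41.8% for Fgfr1, 5.45% and 4.82% for Spry2, 4.73% and 2.57% for Dusp6, and 1.94% and 4.18% for Fgf15. Those of Spry2 and of Dusp6 in the library labelled wild type, and that of Fgf15 in the other, were thus close to or above the share over all cells. Spry4, Fgfr2, Fgf4 and Fgf17 were each seen in under 2.1% of thinned cells. With all UMIs, Fgf8 was seen in 37.5% and 50.9% of cells and Fgf5 in 39.4% and 48.7%.

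Most thinned cells held no ligand UMI. No ligand was seen in 71.0% and 58.9% of cells, 1 ligand in 24.4% and 33.4%, 2 in 4.25% and 7.39%, and 3 in 0.310% and 0.340%. No cell held 4 or 5. Cells with an Fgf8 UMI had Fgf5 at 92.8 CPM, against 51.8 CPM in cells without one, in the library labelled wild type, and at 119 against 83.0 CPM in the other. The log2 ratios were 0.84 (0.66 to 1.02) and 0.52 (0.39 to 0.64), so the 2 main ligands tended to occur in the same cells. Fgfr2 was lower in cells with an Fgf8 UMI, at -0.71 (-1.60 to -0.002) and -1.64 (-2.53 to -0.94), from 16 UMIs in each library. Feedback genes in those cells were close to the others: Spry2 was at 0.21 (-0.10 to 0.50) and -0.02 (-0.23 to 0.19), and Dusp6 at 0.32 (-0.01 to 0.63) and -0.01 (-0.30 to 0.27), all intervals holding 0.

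Fgf4 was most concentrated in a small set of cells with naive genes. Naive-like cells, with UMIs of at least 5 of 12 naive markers after thinning, numbered 7 and 12. Fgf4 was at 64.3 CPM (17.5 to 165) and 52.6 CPM (17.1 to 123) in them, from 4 and 5 UMIs, against 2.23 and 1.71 CPM in the other cells. Since these are few, cells with at least 4 UMIs of the naive gene Zfp42 were also taken, a rule chosen after seeing the data. In these 41 and 24 cells Fgf4 was at 40.3 CPM (24.2 to 62.9) and 61.2 CPM (33.4 to 103), against 2.08 and 1.62 CPM in the rest. Fgf5 was seen in 1 of the 41 and 1 of the 24 after thinning. With all UMIs it was at 23.3 and 34.96 CPM there, against 62.3 and 91.4 CPM in the rest. Fgfr1 was at 93.3 and 65.5 CPM there, against 174 and 159 CPM in the rest. T was at 36.03 and 52.4 CPM there, against 38.8 and 50.7 CPM in the rest. Fgf8 was at 65.7 and 69.9 CPM there, against 92.8 and 154 CPM, so the cells rich in Zfp42 were not free of streak genes. These cells held 19 of 220 and 14 of 172 Fgf4 UMIs, so most Fgf4 counts came from the other, far more numerous cells. Extraembryonic-endoderm-like cells, by 5 of 12 markers, numbered 12 and 13 and held no Fgf4 UMI, and they are too few to place Fgf4.

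The genes most like each member were named by a log2 ratio between thinned cells with and without a UMI of the member, taking the lower of both libraries over 5348 genes. For Fgf8 they were Tdgf1, a co-receptor of Nodal (1.44 and 0.98), T (1.09 and 0.88) and Pmepa1, a TGF-beta target (1.04 and 0.77). For Fgf5 they were T (0.69 and 0.63), the ephrin receptor gene Epha2 (0.71 and 0.61) and Eomes (0.96 and 0.52). Ptn, a secreted heparin-binding factor, and Gbx2 were named for both receptors: Ptn was at 1.37 and 1.27 with Fgfr2 and at 0.49 and 0.50 with Fgfr1. Fgfr2 also went with Ebf1 (1.15 and 1.12) and Fgfr1 with Stxbp4 (0.40 and 0.41). For Fgf4 the first was Dppa5a, a gene of pluripotent cells, at 2.11 (1.72 to 2.45) and 1.84 (1.36 to 2.25), from 48 and 38 cells.

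The remaining members gave the following genes. Dusp6 went with T (0.87 and 0.50), Kpna6 and Fbxl5, and Fgf15 with Tmem47 (0.62 and 0.66), Zbed4 and Slc16a3. Spry2 went with Lsm11 (0.49 and 0.47), Grk6 and Suco, and Spry4 with Def8 (0.84 and 0.82), Zfp280c and Dlg1. Fgf17, seen in 36 and 17 thinned cells, went with Sufu, Palm and Nbn, and Fgf4 with B4galt6 and Hspb1 after Dppa5a. The intervals of Sufu, Palm, Nbn, B4galt6, Hspb1, Slc16a3, Suco, Def8, Zfp280c, Dlg1 and Fbxl5 held 0 in at least 1 library, so these places in the order are not firm. Those of Lsm11 and Grk6 began at 0.01 in the library labelled wild type. For Spry2 and Dusp6 no gene was named again when cells needed at least 2 UMIs of the member. That rule left 27 and 57 cells for Spry2 and 24 and 22 for Dusp6, so their order is not firm either. Where a UMI of a member must be seen in a thinned cell, the measure is sparse and its order is a description.

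The other genes of the pathway were close to the background. Of 99 further pathway genes in 5 lists, 82 had a mean of at least 1 CPM, with a median log2 ratio of -0.07 against -0.03 over the 12406 genes at that level. Of the 82, 6 were higher and 12 lower by 0.25, beside 5.7% and 8.89% of the 12406 genes. Among the other Fgf genes, listed as ligands, 6 of 17 reached 1 CPM, with a median of -0.27, and 3 were lower and none higher. Of these 6, Fgf11, Fgf12, Fgf13 and Fgf14 are intracellular FGF homologues rather than secreted ligands, and Fgf12 and Fgf13 were among the 3 lower. The third was Fgf18, at 1.77 and 1.22 CPM, with the lowest ratio of the 6. Fgf13 was at 7.66 and 6.23 CPM, and Fgf22 had a log2 ratio of 0.19 (-0.15 to 0.53). Among other receptors and receptor-binding genes 5 of 10 reached 1 CPM, all below 0, with a median of -0.36 and 3 past the limit. Fgfbp1, a carrier of secreted FGFs, was at 2.98 and 1.63 CPM, a log2 ratio of -0.87 (-1.16 to -0.59), and Flrt3, a membrane protein that binds FGF receptors, at 8.00 and 6.25 CPM. No gene in these 2 lists reached 10 CPM, so those named here were named outside the rule, after their values were seen. Among all 5995 genes between 0.5 and 10 CPM, 11.2% were higher and 17.9% lower past the limit.

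Heparan sulphate genes and the ERK cascade had few members past the limit. All 21 heparan sulphate genes passed 1 CPM, with a median of -0.04 and 1 higher and 1 lower by 0.25. The higher was Ndst1, at 6.04 and 8.46 CPM and a log2 ratio of 0.49 (0.33 to 0.64). Ndst1 was named after its value was seen and overlaps the antisense gene Rps14. The rule named Sdc4, a syndecan core protein, at -0.25 (-0.31 to -0.20), the glypican gene Gpc6 at 0.24 (0.14 to 0.34), and the sulphotransferase gene Hs6st1 at -0.23 (-0.35 to -0.12). All 24 adaptor and cascade genes passed, with a median of -0.02, none higher and 1 lower. That 1 was the adaptor gene Frs3, at 4.13 and 1.97 CPM and -1.07 (-1.33 to -0.82), named after its value was seen and overlapped by antisense genes. Rasa1, a brake on RAS that the rule named, was at -0.15 (-0.21 to -0.08).

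Targets and other feedback genes were split. Of 27, 26 passed, with a median of -0.10, 5 higher and 4 lower by 0.25. The rule named the ETS factor genes Etv4, at 30.1 and 41.4 CPM and a log2 ratio of 0.46 (0.39 to 0.53), and Etv5, at 50.9 and 65.9 CPM and 0.37 (0.32 to 0.43). It also named Il17rd, a membrane inhibitor of FGF signalling, at 46.1 and 68.0 CPM and 0.56 (0.51 to 0.62). The other 2 past the limit upwards were Ier3 and Dusp5, and those downwards were Fos, Jun, Dusp4 and Lif, all named after their values were seen. Dusp4, another ERK phosphatase gene, was at 22 and 17.2 CPM, a log2 ratio of -0.35 (-0.45 to -0.26). Etv4, Etv5, Il17rd, Spry2 and Spry4 were thus on the side of Fgf8 and Fgf5, and Dusp6 and Dusp4 on the other. Related genes in the same list went the opposite way, and these too were named after their values were seen. Etv1 was at -0.18 (-0.26 to -0.11) and Spry1 at -0.16 (-0.31 to -0.01), whereas Dusp5 was at 0.26 (0.09 to 0.43). The ETS, Sprouty and phosphatase genes were thus each split.

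**Figure D5:**
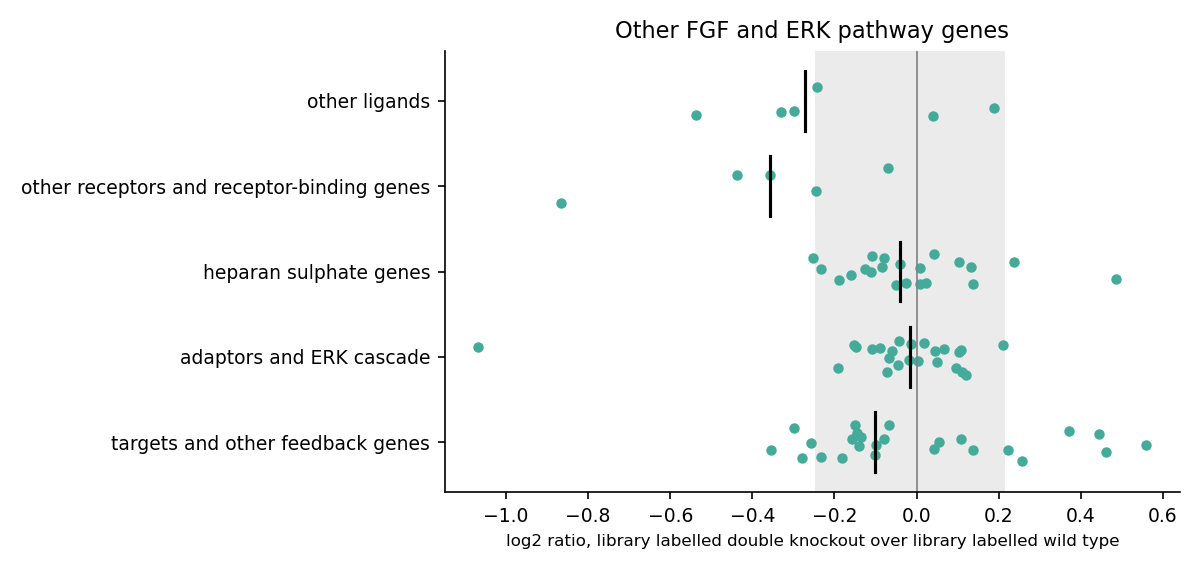
Log2 ratio between libraries of 82 other pathway genes in 5 lists, 1 point per gene, with the list median as a bar. The 5th to 95th percentile of the 7607 genes of at least 10 CPM (-0.25 to 0.21) is in grey. Points start at 1 CPM, and no gene of the other ligand and receptor lists reached 10 CPM, so the band is not matched to their level. The targets and feedback list reaches from -0.35 to 0.56, and the other receptors lie below 0.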

How the data were processed

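RNA of dissociated gastruloids was captured with the 10x Genomics 3′ v3.1 kit and sequenced, per the labels' protocols, in 1 library per genotype. The authors deposited unfiltered matrices of raw UMI counts that list 6794880 barcodes per library. The labels' protocols name Cell Ranger 8.0.1, whereas the submitters' processing notes list STARsolo, STAR 2.7.9a, Seurat 5.1.0 and mm10, and which of them made the counts is not given in the sources used here. The labels state 9238 and 11190 cells. Of the barcodes, 8772 and 10613 had at least 2500 UMIs, of which 1 and 0 were removed for fewer than 1000 genes and 64 and 26 for more than 10% mitochondrial UMIs. Doublets were kept, and leaving out the highest scores is 1 of the alternatives.

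Counts were summed per library or class of cells and divided by the summed total as counts per 1000000 (CPM). Log2 ratios used a pseudocount of 0.5 counts. Intervals are exact at 95% (Poisson for sums, conditional on the total for ratios, Clopper-Pearson for shares) and cover counting error only. The ratio script was tested on simulated data. Places come from GENCODE M21 on GRCm38, which held 32158 of the 32285 gene identifiers.

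The members and gene lists were chosen with earlier results of these data known. Named are the 10 members, Sp5, Sp8, T, Eomes and Irx3, the 3 genes of each pathway list with the largest log2 ratio in size at a mean of at least 10 CPM, and the 3 genes most like each member at a mean of at least 20 CPM in thinned cells, without mitochondrial, ribosomal protein and predicted genes. Marker genes are named to check labels. Some genes that the rule names are not reported here. Alternatives were other scalings, cell filters, class rules, equal class shares and other expression minimums. Python 3.11.15, NumPy 2.4.6, SciPy 1.17.1 and pandas 2.3.3 were used.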

Additional observations from a re-analysis of the deposited data

How the results depend on the processing

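With 1 library per genotype there is no replicate to leave out, and no paired analysis was possible because each group has 1 library and no test was made. Of the 10 FGF genes, 7 passed a log2 ratio of 0.25 between libraries, and the count stayed at 7 or 8 under TMM and median-of-ratios scaling, other cell filters and equal class shares; with only members of at least 10 CPM it was 3, since 6 genes were left. Of 80 single values between libraries, 73 moved by less than counting error and 7 by more, and no sign changed. The lowest size of the Fgf4 ratio was -0.248, with at most 5% mitochondrial UMIs, and that of Fgf17 was -0.69, without cells that had at most 0.8 times the median share of UMIs on chromosome 6 or 11. Without those cells, 2368 and 2573 in all, Dusp6 was at -0.17 and Fgf5 at 0.63. The median of the other pathway genes ranged from -0.07 to -0.04. The pairs of member and marker past 0.5 numbered 9 to 11, against 10. Of the class values, 52 were counted as moved by more than counting error and 245 by less, with 3 more counted as reversed. Of the shares of cells, 39 were counted as moved and 1 was not. Of 140 class values recomputed for ratios past 0.5 in size, 3 changed sign, all in Irx3-positive cells of the library labelled double knockout and all with few UMIs: Fgf4 to 0.093 when positive cells were called after thinning, and Fgf17 to 1.17 with at least 2 Irx3 UMIs and to 0.31 after thinning. Of 160 for smaller ratios, 11 changed sign, among them 4 of Fgf15 with T, and for these as for the 3 the interval of the reported value held 0. With at least 2 UMIs of the member, 6 of the 15 genes most like the 5 members with enough cells were named again. All of these were named for Fgf5, Fgf8 or Fgfr1, and none for Spry2 or Dusp6. Depth limits Fgf4 and Fgf17 most, with 63 to 220 UMIs per library.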
